A study of Homo sapiens with 8 samples.

Results

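BECN1 and 9 other core genes of autophagy were followed in the RNA of A549 cells, a human lung adenocarcinoma line, after transfection with an siRNA against APEX1 or with a control siRNA. The 10 genes were BECN1, SQSTM1, MAP1LC3B, GABARAPL1, GABARAPL2, ATG5, ATG7, ATG12, ULK1 and WIPI1, found by their GENCODE 44 symbols among the 58302 genes of the count table. They were picked with the difference between both groups already known, above all the higher level of BECN1, so their differences are given as a description. Where a call or an adjusted p of these genes is mentioned, it comes from the fit over all genes and is no independent test.

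Autophagy wraps a portion of cytoplasm in a double membrane, the autophagosome, and delivers it to the lysosome for breakdown. The ULK1 kinase complex starts the process, and a lipid kinase complex built around the BECN1 protein then marks the membrane with phosphatidylinositol 3-phosphate (PI3P), to which WIPI proteins bind. Ubiquitin-like proteins of the ATG8 family (the LC3 and GABARAP proteins) are joined to lipid in the growing membrane with the help of ATG7, ATG5 and ATG12, and receptors such as the SQSTM1 protein (p62) tie cargo to them.

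The series holds 8 libraries of total RNA, 4 labelled siCTRL and 4 labelled siAPEX1, all from the same line, and the control cells received a scrambled siRNA. The library kit was one for small RNA, adapted by the submitters to read primary miRNA transcripts also, and the deposited values are reads counted per gene. APEX1 itself had between 47 and 64 counts in the libraries labelled siCTRL and between 19470 and 27916 in those labelled siAPEX1. The labels name APEX1 as the silenced gene, and its protein, by which the study checked the silencing, was not analysed here. The cells labelled siAPEX1 received an siRNA against APEX1, which is itself a small RNA. Whether reads of that siRNA are among these counts was not tested. Every direction here is that of the libraries as they are labelled.

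The libraries labelled siCTRL held between 1639796 and 1949886 counts and the libraries labelled siAPEX1 between 1348386 and 1619500. Levels are given in CPM, the reads of a gene set against a library size adjusted by edgeR's TMM factors, which lay between 1.10 and 1.14 in the first group and between 0.873 and 0.919 in the second. A single count was worth between 0.463 and 0.553 CPM in the first group and between 0.721 and 0.823 CPM in the second. Of the 9 markers of lung epithelium looked at, KRT7, KRT8, KRT18 and KRT19 were lower in the libraries labelled siAPEX1, by log2 fold changes between −2.31 and −1.01 and with an edgeR adjusted p of 1.33e-07 or less for each. NKX2-1 had 0 counts and SFTPB and SFTPC at most 1 in any library, while CDH1 was higher by a log2 fold change of 0.92. The remaining marker, EPCAM, had too few counts to be tested. The 9 markers summed to between 567 and 693 CPM in the libraries labelled siCTRL and between 222 and 287 CPM in those labelled siAPEX1. The 8 markers of blood, endothelial and stromal cells summed to at most 8.30 CPM in any library, with PECAM1 and CD3E at 0 throughout. The part of the keratin difference in the results on the autophagy genes was not tested, and bulk RNA cannot tell fewer cells of a kind from less RNA per cell.

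Because miRNAs of the miR-30 and miR-376 families have been described as pairing with BECN1 mRNA, their mature sequences and the matching sites are shown first. The mature sequences below, from RefSeq (GRCh38.p14), are written with the seed, bases 2 to 8, in capitals. The miR-30 arms all carry the seed GUAAACA, and miR-376c-3p carries ACAUAGA.
miR-30a-5p: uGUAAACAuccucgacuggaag
miR-30c-5p: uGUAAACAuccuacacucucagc
miR-30e-5p: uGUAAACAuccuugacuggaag
miR-376c-3p: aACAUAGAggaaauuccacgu

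A match to the miR-30 seed is TGTTTAC on the strand of the mRNA, and this strand of the 3′ untranslated region (3′UTR) of the canonical GENCODE 44 transcript was searched. The match occurred in 4 of the 10 genes. The sites follow 5′ to 3′ on the strand of the mRNA, with the match in capitals and 10 bases on either side. They lie in the GRCh38 genome at chr17:42810646-42810672 (minus strand, BECN1), chr16:87404396-87404422 (plus strand, MAP1LC3B), chr6:106185999-106186025 (minus strand, ATG5), and chr5:115831404-115831430 and chr5:115831386-115831412 (minus strand, ATG12).
BECN1: aaacagtacaTGTTTACaataccaaaa
MAP1LC3B: tagtgaaagcTGTTTACtgtaacgggg
ATG5: aaatttcctaTGTTTACagtctgtcta
ATG12 first site: ttttttttaaTGTTTACatttatctct
ATG12 second site: tttatctctaTGTTTACctttttagtc

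In BECN1 the match began at base 98 of a 3′UTR of 626 bases. The longest of these regions, the 3604 bases of ATG12, held both a pair of miR-30 matches and a pair of matches to the miR-376c-3p seed, TCTATGT, of which the second shares bases with the second miR-30 match. BECN1 held no match to the miR-376c-3p seed, and none of the 10 genes held one to the seed UCAUAGA that miR-376a-3p and miR-376b-3p share (TCTATGA on the mRNA, found in 10.07% of the 4857 nuclear protein-coding genes tested). A miR-30 match was present in 1030 of the same 4857 genes (21.21%) and a miR-376c-3p match in 615 of them (12.66%). The median log2 fold change of the genes with a miR-30 match was 0.07 and that of the genes without one −0.06. The other seeds gave medians of the same signs. They were 0.040 with and −0.045 without a miR-376c-3p match, and 0.036 and −0.043 for the seed of miR-376b-3p. A match is a string of letters in the reference and was not measured as a bound site.

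BECN1 encodes Beclin-1, the scaffold of the lipid kinase complex, and its gene (ENSG00000126581) lies on chromosome 17 from 42810134 to 42833350 on the minus strand of GRCh38, with 12 exons in the canonical transcript. It had 15, 19, 25 and 11 counts in the libraries labelled siCTRL, in the order of the replicate numbers, and 37, 46, 60 and 47 counts in those labelled siAPEX1. The lowest library labelled siAPEX1 stood above the highest labelled siCTRL both in counts and after scaling, at 30.5 against 11.6 CPM. The mean level was 8.60 ± 2.36 CPM (SD, n = 4) in the libraries labelled siCTRL and 37.1 ± 5.23 CPM (SD, n = 4) in those labelled siAPEX1, a 4.31-fold difference. The log2 fold change of the edgeR fit was 2.09 (standard error 0.194, 95% interval from 1.70 to 2.48). That was rank 20 among the 5368 genes that passed the filter on low counts and rank 7 among the 4857 nuclear protein-coding ones. It lay between 1.97 and 2.27 with any 1 library left out.

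**Figure D1:**
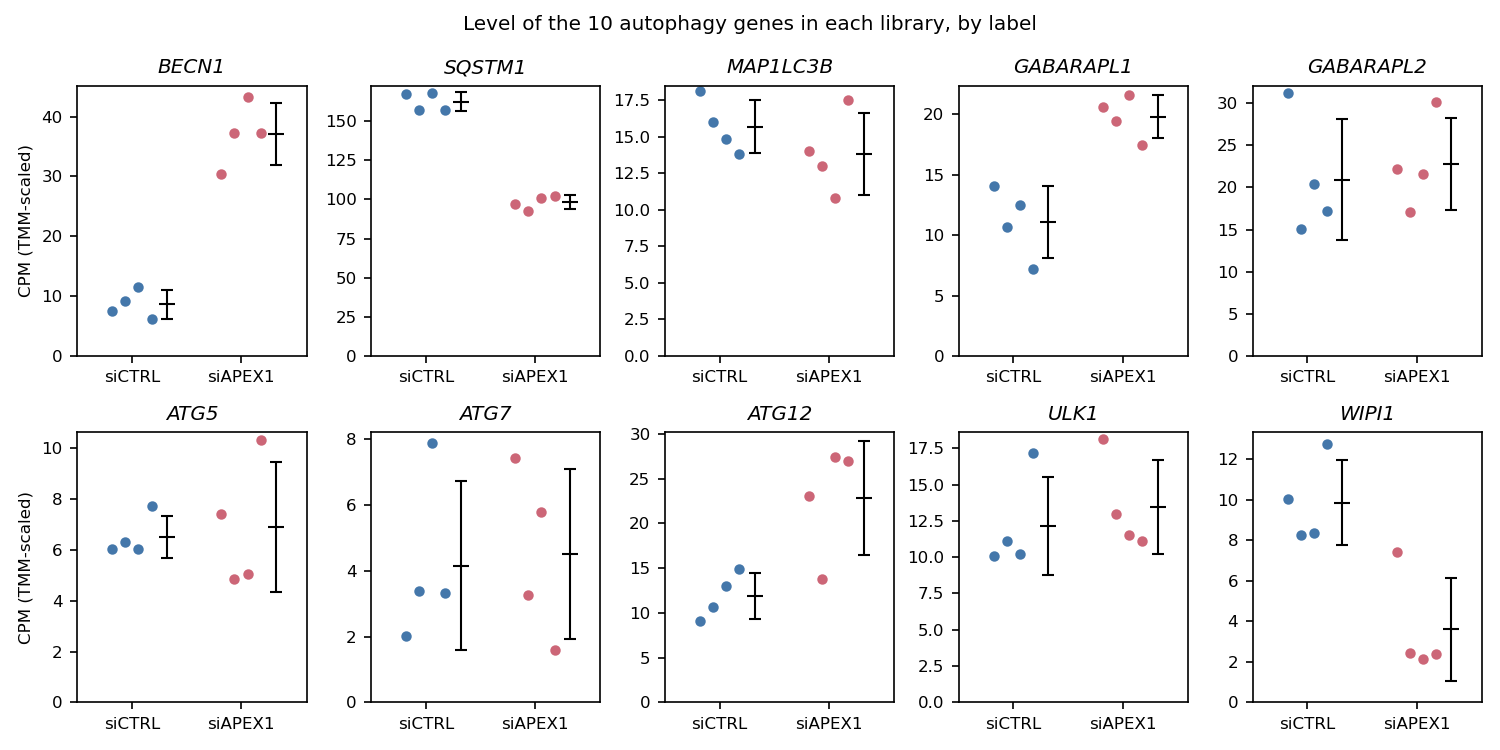
Level of the 10 autophagy genes in CPM (y axis, starting at 0, own scale per panel) in the 4 libraries of each label (points), with the mean and SD beside them. The BECN1 points labelled siAPEX1 sit between 30.5 and 43.3 CPM, above the highest labelled siCTRL at 11.6, while SQSTM1 and WIPI1 lie lower in the libraries labelled siAPEX1 without overlap.

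A gene was called when its absolute log2 fold change was at least 1 and its adjusted p at most 0.05 (edgeR's quasi-likelihood test, Benjamini-Hochberg over all genes tested). Under that rule 9.28% of all 5368 genes were called, 3.6% higher and 5.68% lower in the libraries labelled siAPEX1, and of the 9 autophagy genes that passed the filter BECN1 was called higher and WIPI1 lower. ATG7 did not pass the filter. By the adjusted p alone, which 15.9% of all genes passed as higher and 15.8% as lower, 3 of the 9 (BECN1, GABARAPL1 and ATG12) were higher and 2 (SQSTM1 and WIPI1) lower. By library size alone GABARAPL1 no longer passed the adjusted p, and MAP1LC3B (−0.53) passed it as lower. The 4 libraries of each label did not overlap for BECN1 and GABARAPL1, which were higher, and for SQSTM1 and WIPI1, which were lower. Among all genes tested 28.9% did not overlap, 14% with the higher level in the libraries labelled siAPEX1, and 14.9% with the lower. These shares are given as background, since the genes were chosen on the same contrast. The median log2 fold change of the 9 genes was 0.12, and that of all genes tested lay at −0.0035.

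**Figure D2:**
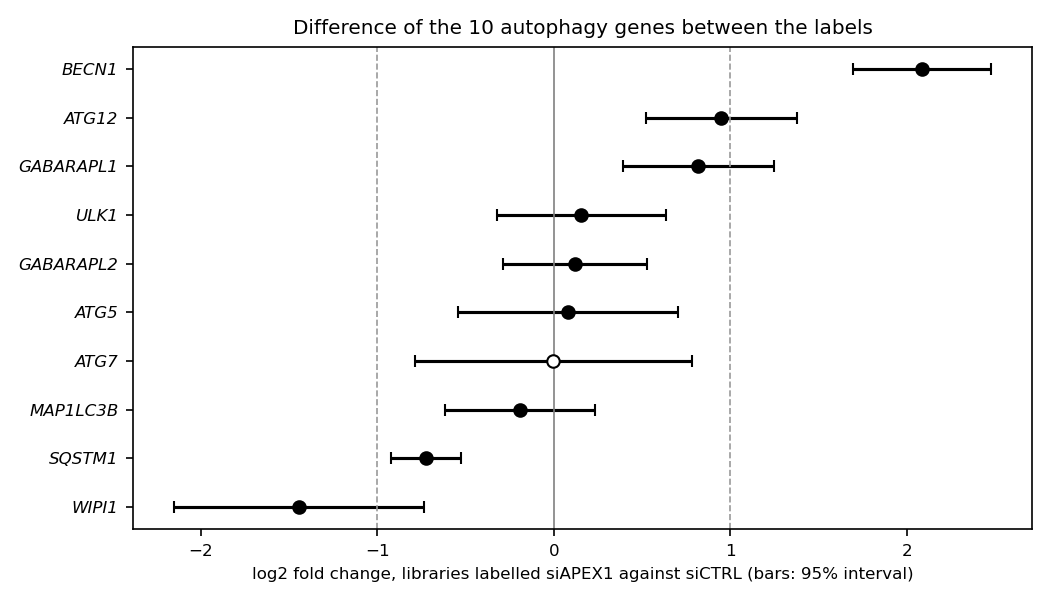
Log2 fold change of the 10 autophagy genes (x axis, libraries labelled siAPEX1 against siCTRL) with 95% intervals as bars. The open point, ATG7, comes from a fit without the filter, and dashed lines mark −1 and 1. BECN1 stands at 2.09 and WIPI1 at −1.44, and the intervals of 5 genes between them include 0.

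ULK1 encodes the kinase that starts autophagosome formation. It had 20, 23, 22 and 31 counts in the libraries labelled siCTRL and 22, 16, 16 and 14 in those labelled siAPEX1. Replicate 4 was the highest of the first group and replicate 1 the highest of the second, and the groups overlapped. The means were 12.1 ± 3.38 and 13.4 ± 3.22 CPM (SD, n = 4 each), and the fitted log2 fold change was 0.16 (standard error 0.237, 95% interval from −0.32 to 0.63). Scaling by library size alone, which moved the median of all genes by −0.34, put it at −0.18.

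WIPI1 encodes a protein that binds PI3P on the forming membrane. Its counts were 20, 17, 18 and 23 in the libraries labelled siCTRL and 9, 3, 3 and 3 in those labelled siAPEX1. All libraries labelled siAPEX1 were lower, and replicate 1 stood apart from the other three, which were at the floor of 3 counts used here. The means were 9.84 ± 2.10 and 3.60 ± 2.54 CPM (SD, n = 4 each), 2.73-fold lower in the libraries labelled siAPEX1. The log2 fold change was −1.44 (standard error 0.351, 95% interval from −2.15 to −0.73), and −2.01 without replicate 1 labelled siAPEX1. The filter of at least 10 counts in every library removed the gene.

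The ATG8 family was represented by MAP1LC3B, GABARAPL1 and GABARAPL2. MAP1LC3B, whose protein LC3B is the usual marker of autophagosomes, had 36, 33, 32 and 25 counts in the libraries labelled siCTRL and 17, 16, 15 and 22 in those labelled siAPEX1. The raw counts did not overlap, but after scaling the groups did, at 13.8 to 18.1 and 10.8 to 17.5 CPM. The log2 fold change was −0.19 (standard error 0.211, 95% interval from −0.62 to 0.23).

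GABARAPL1 had 28, 22, 27 and 13 counts in the libraries labelled siCTRL and 25, 24, 30 and 22 in those labelled siAPEX1. The raw counts overlapped, and the scaled levels did not, since the libraries labelled siAPEX1 were smaller and had smaller factors. The means were 11.1 ± 2.96 and 19.8 ± 1.78 CPM (SD, n = 4 each), and the log2 fold change was 0.82 (standard error 0.212, 95% interval from 0.39 to 1.25). It was 0.48 when only library size was used for scaling.

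GABARAPL2 had 62, 31, 44 and 31 counts in the libraries labelled siCTRL and 27, 21, 30 and 38 in those labelled siAPEX1. Replicate 1 was the highest of the first group and replicate 4 of the second, and the scaled groups overlapped. Its log2 fold change was 0.12 (standard error 0.203, 95% interval from −0.29 to 0.53). It was −0.22 by library size alone.

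ATG5, ATG7 and ATG12 belong to the machinery that joins ATG8 proteins to lipid. ATG7 is the activating enzyme, and ATG12 is itself a ubiquitin-like protein that is attached to ATG5. Of these, ATG12 had 18, 22, 28 and 27 counts in the libraries labelled siCTRL and 28, 17, 38 and 34 in those labelled siAPEX1. Replicates 1, 3 and 4 labelled siAPEX1 lay above all libraries labelled siCTRL after scaling, whereas replicate 2, at 13.8 CPM, lay below the highest of them, at 14.9 CPM. The means were 11.9 ± 2.59 and 22.8 ± 6.32 CPM (SD, n = 4 each). The log2 fold change was 0.95 (standard error 0.213, 95% interval from 0.52 to 1.38), and it came to 1.15 without replicate 2 labelled siAPEX1 and 1.07 without replicate 4 labelled siCTRL, both past the call rule.

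ATG5 had 12, 13, 13 and 14 counts in the libraries labelled siCTRL and 9, 6, 7 and 13 in those labelled siAPEX1. The siCTRL values were close together and lay within the wider range of the others, 4.87 to 10.3 CPM. Its log2 fold change was 0.08 (standard error 0.308, 95% interval from −0.54 to 0.71), and −0.26 by library size alone. ATG7 had 4, 7, 17 and 6 counts in the libraries labelled siCTRL and 9, 4, 8 and 2 in those labelled siAPEX1. These counts were too low for the filter and overlapped widely. In a fit of all genes with at least 1 count its log2 fold change was −0.0021 (standard error 0.399), with a 95% interval from −0.78 to 0.78. A change within that interval is not excluded at this depth.

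SQSTM1 was the most abundant of the 10 genes, and its protein p62 carries ubiquitinated cargo to the autophagosome and is broken down with it. It had 333, 324, 363 and 284 counts in the libraries labelled siCTRL and 118, 114, 140 and 129 in those labelled siAPEX1. All 4 libraries labelled siAPEX1 lay well below all 4 labelled siCTRL, and within each group the libraries were close. The means were 162 ± 6.24 and 98.3 ± 4.43 CPM (SD, n = 4 each), 1.65-fold lower in the libraries labelled siAPEX1. This gave a log2 fold change of −0.72 (standard error 0.0977, 95% interval from −0.92 to −0.53), and it was −1.07, past the call rule, by library size alone.

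Levels were compared between genes only per length, as CPM per kilobase of the summed exons of the gene. The library kit was one for small RNA, and whether reads scale with exon length in such libraries was not tested. In the libraries labelled siCTRL the order was SQSTM1 at 21.6, GABARAPL2 at 6.95 and MAP1LC3B at 3.11, followed by WIPI1, GABARAPL1, ULK1, ATG12, BECN1 at 1.34, ATG5 at 1.15 and ATG7 at 0.470 CPM per kilobase. From MAP1LC3B to ATG5 each gene overlapped the next in the range over libraries, so neighbours there do not differ beyond their spread. BECN1 was rank 8 in this group.

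In the libraries labelled siAPEX1 BECN1 was rank 3, at 5.78 CPM per kilobase, below SQSTM1 at 13.0 and GABARAPL2 at 7.57 and above GABARAPL1 at 4.88. Its range overlapped those of GABARAPL2 and GABARAPL1. WIPI1 moved from rank 4 to rank 9, and its range there overlapped those of ATG5 and ATG7. With the length of the canonical transcript in place of the summed exons, BECN1 was rank 6 in the libraries labelled siCTRL and again rank 3 in those labelled siAPEX1.

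**Figure D3:**
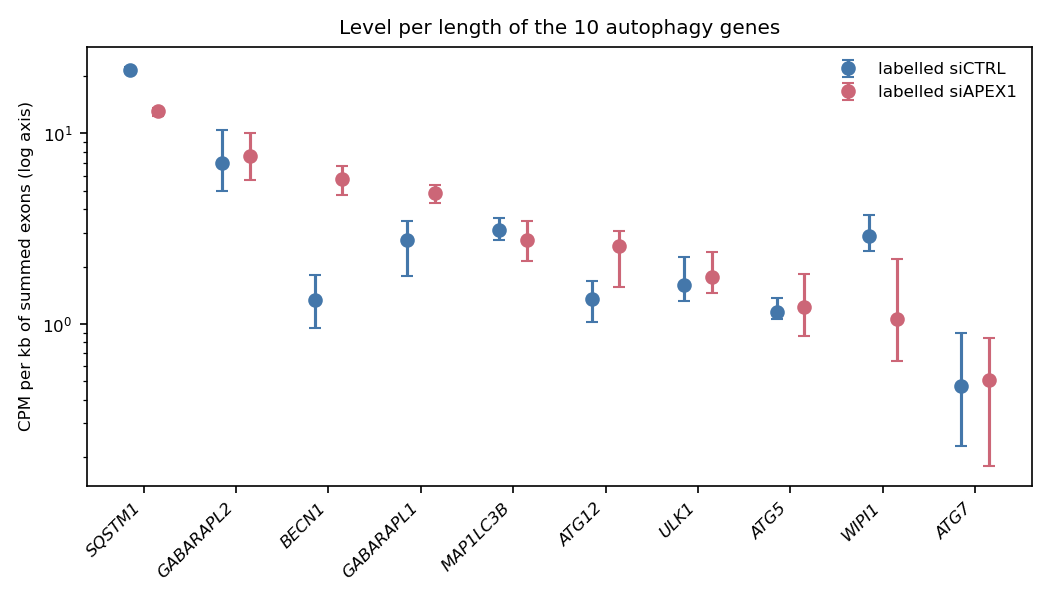
Level of the 10 autophagy genes in CPM per kilobase of summed exons (y axis, log scale), as the mean of 4 libraries per label (points) with the range over libraries (bars). BECN1 goes from 1.34 in the libraries labelled siCTRL to 5.78 in those labelled siAPEX1, next to GABARAPL2 and GABARAPL1.

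Reads of some of these genes could be shared with other annotated loci. The 8 entries for copies of the 10 genes held few counts, with at most 2 in any library for MAP1LC3B2, 1 in all for MAP1LC3BP1 and 0 for the others, BECN1P2 among them. The counting leaves out reads placed at several loci, so these low counts do not show that no reads were shared. PSME3, a proteasome activator gene that overlaps BECN1 on the opposite strand, had 105 counts in all in the libraries labelled siCTRL and 59 in those labelled siAPEX1. Its log2 fold change was −0.18 (edgeR adjusted p = 0.61), against 2.09 for BECN1. Whether the counting used strand is not given in the sources used here. SQSTM1 overlaps MGAT4B on the opposite strand, which had 185 counts in all in the libraries labelled siCTRL and 76 in those labelled siAPEX1.

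Within 100 kilobases of BECN1 the annotation holds 18 other genes, of which 11 had 0 counts in all libraries and 4 had at least 10 counts in some library. Of these, EZH1, the gene of a histone methyltransferase, was called higher in the libraries labelled siAPEX1, and its log2 fold change was 1.13 (standard error 0.314, edgeR adjusted p = 0.0045). It had between 3.32 and 6.49 CPM in the libraries labelled siCTRL and between 7.21 and 15.6 CPM in those labelled siAPEX1. The call was lost without replicate 1 labelled siAPEX1 (log2 fold change 0.90, adjusted p = 0.054) and by library size alone (0.79). COA3, an assembly factor of cytochrome c oxidase, stood at −0.34 (adjusted p = 0.51). VPS25, a subunit of the endosomal sorting complexes, did not pass the filter.

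The 5 genes whose centred log2 CPM were closest to those of BECN1 over the 8 libraries were RNVU1-4, RNVU1-26, FGA, RNY1 and RNU5A-8P, with root mean square differences of 0.214, 0.216, 0.265, 0.283 and 0.293. FGA, the fibrinogen alpha chain, was the only protein-coding gene among them, at 8.81 ± 1.96 CPM in the libraries labelled siCTRL and 44.2 ± 6.0 CPM in those labelled siAPEX1 (SD, n = 4 each). The others are small RNA genes, of variant U1, Y and U5 RNA. RNVU1-4 had only between 3 and 5 counts in the libraries labelled siCTRL. Of the other autophagy genes GABARAPL1 was nearest, at rank 212 of 5367, followed by ATG12 at rank 326, and WIPI1 was farthest, at rank 5275. Each gene was centred over all 8 libraries, so these distances include the difference between the labels by which BECN1 was chosen. They largely restate the fold changes and are no separate evidence of shared behaviour.

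Beyond the 10 genes, 116 further genes of the pathway were listed by role, and 55 of them passed the filter. Of these, 1 was called higher in the libraries labelled siAPEX1, SESN2, and 3 were called lower, ATG13, WDR45 and CCPG1. Among all genes tested 3.6% were called higher and 5.68% lower. By adjusted p alone 7 were higher and 7 lower, beside 15.9% and 15.8% of all genes tested, and 41 did not pass the test. The libraries did not overlap for 6 with the higher level in the libraries labelled siAPEX1 and for 10 with the lower, beside 14% and 14.9% of all genes tested. The median log2 fold change of the 55 genes was 0.07. The counts per role that follow are to be read beside the same shares of all genes tested.

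**Figure D4:**
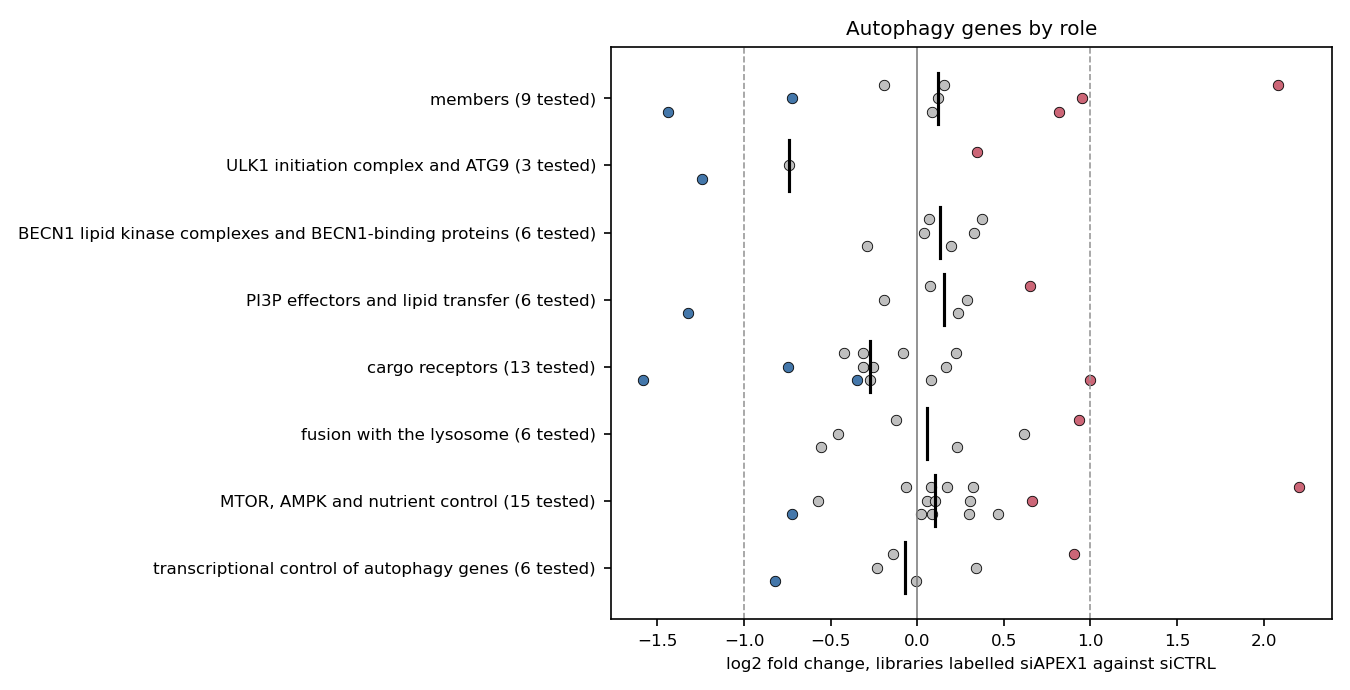
Log2 fold change (x axis, libraries labelled siAPEX1 against siCTRL) of the autophagy genes that passed the filter, by role (rows). Red (higher) and blue (lower) points passed an adjusted p of 0.05, grey points did not pass, black bars are row medians and dashed lines mark −1 and 1. SESN2 at 2.21 lies farthest to the right and CCPG1 at −1.58 farthest to the left among the genes outside the top row.

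In the ULK1 initiation complex with ATG9, 3 of 6 genes were tested. ATG13, the adaptor of the complex, was called lower, at 10.3 ± 1.06 and 4.36 ± 1.16 CPM (SD, n = 4 each), and its log2 fold change was −1.25 (edgeR adjusted p = 0.00138). RB1CC1, the large scaffold of the complex also known as FIP200, was higher by the adjusted p alone, at 0.34 on the log2 scale (adjusted p = 0.034). By library size alone RB1CC1 stood at 0.0006, and it also did not pass by DESeq2 (adjusted p = 0.132), with either other filter, or with any 1 of 4 libraries left out (replicates 2 and 3 labelled siCTRL and 1 and 4 labelled siAPEX1, adjusted p between 0.0585 and 0.138).

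In the list of the BECN1 lipid kinase complexes and BECN1-binding proteins 6 of 14 genes were tested and 0 were called by edgeR or by DESeq2. By edgeR 0 passed the adjusted p alone, and 1 (MCL1) had an unadjusted p under 0.05. Their log2 fold changes lay between −0.29 and 0.37, with a median of 0.13. PIK3C3, the catalytic subunit, had between 8 and 17 counts in the libraries labelled siCTRL and between 6 and 10 in those labelled siAPEX1, and its log2 fold change was 0.07 (95% interval from −0.59 to 0.72, adjusted p = 0.90). The other core subunits, PIK3R4, ATG14 and UVRAG, had at most 12 counts in any library and did not pass the filter. In the fit of all genes with at least 1 count, UVRAG stood at 0.91 (95% interval from 0.17 to 1.65), although its libraries overlapped between the groups. PIK3R4 had 0.35 (from −0.73 to 1.44) and ATG14 0.42 (from −0.50 to 1.33) in that fit. BCL2L1 and MCL1, anti-apoptotic relatives of BCL2 whose proteins bind Beclin-1, stood at −0.29 (adjusted p = 0.221) and 0.33 (adjusted p = 0.112), and MCL1 turned to −0.015 by library size alone. BCL2 itself had at most 1 count in any library. PIK3C3 and the subunits under the filter were singled out after their values were seen, to set them beside BECN1.

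The conjugation enzymes (8 genes, such as ATG3 and ATG16L1) and the other ATG8 genes (5, such as GABARAP and MAP1LC3A) were all under the filter. In the fit of all genes with at least 1 count, the 95% interval of each that could be fitted included 0, as for ATG3 at −0.21 (from −0.87 to 0.45), ATG16L1 at 0.48 (from −0.44 to 1.40), MAP1LC3A at −0.15 (from −0.94 to 0.64) and GABARAP at 0.38 (from −0.64 to 1.39). Among PI3P effectors and lipid transfer proteins 6 of 9 genes were tested. WDR45, a relative of WIPI1 also known as WIPI4, was called lower, with between 12 and 16 counts in the libraries labelled siCTRL and between 3 and 5 in those labelled siAPEX1. Its log2 fold change was −1.32 (standard error 0.372, edgeR adjusted p = 0.0052). WIPI2 and WDR45B, of the same family, had 0.08 (adjusted p = 0.82) and 0.29 (adjusted p = 0.35). VMP1, a lipid scramblase of the endoplasmic reticulum, was higher by the adjusted p alone, at 0.65 (adjusted p = 6.83e-07), and the MIR21 gene that lies within it on the same strand was listed at 0 counts. The counting leaves out reads placed at several genes, so this 0 does not show that miR-21 was absent.

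Of the cargo receptors and related genes other than SQSTM1, 13 of 18 were tested, 1 was higher and 3 were lower by the adjusted p, and the median log2 fold change was −0.27. CCPG1, a receptor for the endoplasmic reticulum, was called lower at −1.58 (standard error 0.299, edgeR adjusted p = 4.97e-05), with counts between 22 and 41 in the libraries labelled siCTRL and between 4 and 12 in those labelled siAPEX1. MIR628 lies within CCPG1 on the same strand and had 46 counts in all in the first group and 18 in the second. On the opposite strand CCPG1 overlaps PIERCE2, with 47 and 8 counts in all, and PIGB, with 24 and 9. Whether reads of these genes are among the CCPG1 counts was not tested. NCOA4, the receptor for ferritin, stood at −0.74 (adjusted p = 0.0135) and SEC62 at −0.35 (adjusted p = 0.0234), both lower by the adjusted p alone. BNIP3L, a receptor for mitochondria, was higher at 0.996 (adjusted p = 3.4e-05), just under the fold needed for a call. TAX1BP1 (−0.08, adjusted p = 0.65), NBR1 (−0.42, adjusted p = 0.134) and OPTN (−0.31, adjusted p = 0.186), receptors for ubiquitinated cargo as SQSTM1 is, did not pass the test.

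For fusion with the lysosome 6 of 16 genes were tested and 0 were called by edgeR or by DESeq2, with 3 at an unadjusted p under 0.05 by edgeR. LAMP2, a membrane protein of the lysosome, was higher by the adjusted p alone (0.93, edgeR adjusted p = 0.00331), whereas its relative LAMP1 stood at 0.23 (adjusted p = 0.44) and became −0.11 by library size alone. RAB7A, a small GTPase of late endosomes, had −0.46 (adjusted p = 0.0695).

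Among the genes of MTOR, AMPK and nutrient control 15 of 29 were tested. SESN2, which restrains the MTOR kinase complex when leucine is short, had 5, 7, 3 and 5 counts in the libraries labelled siCTRL and 12, 10, 18 and 20 in those labelled siAPEX1. The groups did not overlap, at 2.52 ± 0.836 and 11.7 ± 3.43 CPM (SD, n = 4 each). Its log2 fold change of 2.21 (edgeR adjusted p = 1.42e-06) was the largest of the 55 genes. DDIT4, which restrains the same kinase in stressed cells, was higher by the adjusted p alone at 0.66 (adjusted p = 2.05e-05), and LAMTOR4, a subunit of the lysosomal anchor of MTOR, was lower at −0.72 (adjusted p = 0.0235).

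Of the transcription factors and cofactors that control autophagy genes 6 of 11 were tested and 0 were called by edgeR or by DESeq2, with 2 at an unadjusted p under 0.05 by edgeR. NFE2L2 (NRF2), the oxidative stress regulator, was higher by the adjusted p alone at 0.91 (edgeR adjusted p = 5.02e-06), without overlap at 18.1 to 26.2 and 39.6 to 43.6 CPM. MITF, a relative of TFEB, was lower at −0.82 (adjusted p = 0.0107). ATF4, a regulator of the response to stress and amino acid shortage, had −0.23 (adjusted p = 0.233), and TFEB itself had at most 6 counts in any library.

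Of the 10 miRNA genes of the miR-30 and miR-376 families 5 passed the filter, and all 5 had log2 fold changes under 0. MIR30A, the source of miR-30a-5p, had 929, 942, 859 and 638 counts in the libraries labelled siCTRL and 290, 365, 367 and 378 in those labelled siAPEX1. All libraries of the second group lay below all of the first, at 275 ± 28.9 against 419 ± 53.2 CPM (SD, n = 4 each). On the log2 scale the difference was −0.61 (standard error 0.0981, edgeR adjusted p = 3.86e-06), lower by the adjusted p but short of the fold needed for a call.

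MIR30E was also lower by the adjusted p alone, at −0.35 (edgeR adjusted p = 0.0326). It did not pass with TMM factors from protein-coding genes, by DESeq2, with the replicate block, or without replicate 1 or 2 labelled siCTRL or 1 or 3 labelled siAPEX1, where the adjusted p lay between 0.0521 and 0.278. MIR30B (−0.23, adjusted p = 0.38), MIR30C2 (−0.21, adjusted p = 0.40) and MIR376C (−0.58, adjusted p = 0.0997) did not pass the test. The count of a miRNA gene does not separate its arms or the primary transcript from the mature miRNA, and miR-30c-5p comes from both MIR30C1 and MIR30C2, so reads of it may have been left out as placed at several loci. Of the 4 genes with a miR-30 match, BECN1 and ATG12 were higher (2.09 and 0.95) and ATG5 and MAP1LC3B had 0.08 and −0.19, and no link between these values and the miRNA counts was tested.

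**Figure D5:**
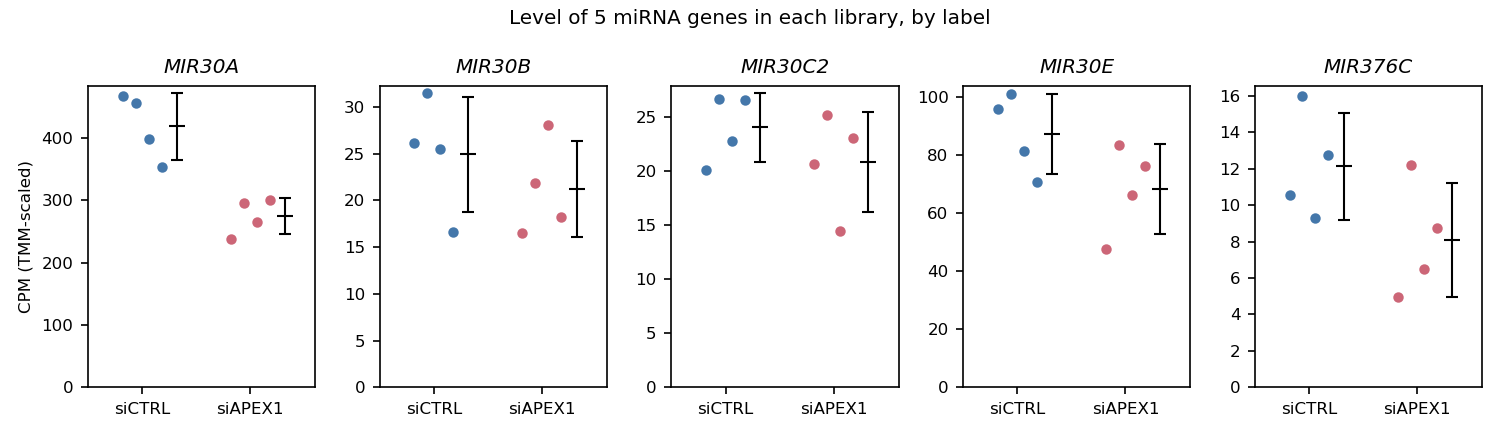
Level of the 5 miRNA genes of the miR-30 and miR-376 families that passed the filter, in CPM (y axis, starting at 0, own scale per panel), in the 4 libraries of each label (points) with the mean and SD beside them. MIR30A lies between 239 and 300 CPM in the libraries labelled siAPEX1, below all libraries labelled siCTRL, whereas the other panels overlap.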

How the data were processed

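RNA-seq was performed on 8 libraries of A549 cells. The authors trimmed reads with cutadapt, aligned them to GRCh38 with STAR (2.5.3a in the submitters' processing notes) and deposited counts per gene of an Ensembl annotation, without normalization. The release and the strand setting are not given in the sources used here. Of the 58302 identifiers, 57532 matched GENCODE 44, and the other 770 carried no symbol.

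The labels gave the groups and replicate numbers. The study describes the replicates as biological, but nothing in the labels says that they were separate cultures, so p-values measure only the spread between these libraries, which may be technical. No 2 libraries agreed within sampling noise, with a chi-square per degree of freedom of at least 1.94 for pairs within a group. Counts were tested with edgeR 4.0.16 in R 4.3.3 (TMM factors, filterByExpr at its settings of 10 for the count and 15 for the total, quasi-likelihood test, Benjamini-Hochberg adjustment over 5368 genes). Calls needed a log2 fold change of 1 or more in size together with an adjusted p no higher than 0.05. The log2 CPM used a prior count of 2. The floor of 3 counts covers counting error only, and the intervals of fold changes come from the fit. The programs were tested on simulated data.

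The 10 genes and the lists of pathway genes, markers and miRNA genes were chosen with earlier results of these data known. Genes were named by a rule: all 10 genes, every called gene of a list and the most abundant tested ones up to 2 per list, the miRNA genes past the filter, neighbours of BECN1 with at least 10 counts in some library, and the 5 genes nearest to it in pattern. The other pathway genes named were chosen after their values were seen. Alternatives were RLE factors, no factors beyond library size, TMM factors taken on protein-coding genes, other filters, DESeq2 1.42.0, the replicate number as a block, another fold threshold, and each library left out in turn.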

Additional observations from a re-analysis of the deposited data

Results flagged for a closer look

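Of 76 groups of 4 libraries examined for the genes named, 5 held a library whose gap to the nearest other exceeded Dixon's 95% critical value as a share of the range, and chance flags about 1 in 20 such groups. Among the 10 autophagy genes, ULK1 stood at 17.2 CPM in replicate 4 labelled siCTRL, with the others between 10.1 and 11.1 CPM. ATG5 stood at 7.75 CPM in the same library, with the others between 6.02 and 6.30 CPM. WIPI1 stood at 7.41 CPM in replicate 1 labelled siAPEX1, with the others between 2.16 and 2.43 CPM. Its relative WDR45 stood at 4.12 CPM in that library, with the others in the same range of 2.16 to 2.43 CPM. CCPG1 stood at 8.65 CPM in replicate 3 labelled siAPEX1, with the others between 3.25 and 3.97 CPM.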

How the results depend on the processing

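BECN1 was called higher in all 16 fits, with log2 fold changes between 1.74 and 2.27, and WIPI1 lower in all 15 that kept it, between −2.01 and −1.22. All fits reuse the libraries on which the 10 genes were chosen, so these calls are a description. GABARAPL1 lay between 0.48 and 0.94 and was never called. ATG12 lay between 0.61 and 1.15, and the values of ATG5 (−0.26 to 0.25), GABARAPL2 (−0.22 to 0.37) and ULK1 (−0.18 to 0.35) took either sign. Against 193 genes called higher and 305 lower, scaling by library size only, which shifted the median over all genes by −0.34 (log2), gave 84 and 655, with 2 of the 10 autophagy genes and 7 of the further pathway genes lower, and reversed MCL1 (−0.015) and LAMP1 (−0.11). Keeping all genes with at least 1 count gave 295 and 648, with 6 pathway genes lower. Requiring at least 10 counts in every library gave 81 and 100, with 0 of the 10 genes lower and 0 pathway genes called in either direction, since that filter removed WIPI1 and all 4 of the called pathway genes. RLE factors, TMM factors from protein-coding genes, DESeq2 and the replicate block each called 2 pathway genes higher in place of 1. A fold threshold of 0.75 gave 404 and 531, with 3 of the 10 genes and 4 pathway genes higher, and the adjusted p alone 856 and 847, with 3 and 2 of the 10 genes and 7 and 7 pathway genes. With 1 library left out, between 214 and 233 genes were called higher and between 313 and 378 lower, between 1 and 2 of the 10 genes higher, and between 1 and 3 pathway genes higher and 3 and 5 lower. NFE2L2 was called without replicate 2 labelled siCTRL. Where no construction is named, the cause of these moves was not tested.

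Libraries with the same replicate number did not deviate together (correlations between −0.037 and −0.0035, 0 of 4 best with their own number). No pairing by number was seen, but a shared effect smaller than the counting noise would not show in these correlations. The replicate block called 193 genes higher and 301 lower and changed no call among the 10 genes.

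Low counts are one limit. Apart from SQSTM1, the 10 genes had at most 62 counts in a library, and ATG7 and 61 of the 116 further pathway genes did not pass the filter.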
